A study of Homo sapiens with 12 samples.

Results

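Heat shock transcription factors and chaperones were examined as 40 genes, chosen by name from a list of heat shock proteins and co-chaperones and matched by symbol to the 54127 genes counted in each library. All 40 were found and all 40 had enough reads to be tested. The libraries were RNAseq of C4-2 cells, an androgen receptor positive line of castration-resistant prostate cancer (PrCa) derived from LNCaP cells. The question was how the transcriptome responds to inhibition of PDZ binding kinase (PBK), a mitotic kinase. The control group held 6 libraries of cells given DMSO, the vehicle. The treated group held 6 libraries of cells given 1 µM PBKi (HI-TOPK-032, also written TOPK-32, a small molecule inhibitor of the kinase activity of PBK), and treatment lasted 6 h in each group. Every library came from this 1 cell line without any genetic change. The sources do not say whether the replicates were separate cultures, so p-values measure only the spread between these libraries. The labels give flow-sorted cells as the source of the RNA, a step that the study's methods do not mention. The genes encode mostly cytosolic and nuclear proteins, but HSPA9, HSPD1, HSPE1, TRAP1 and DNAJA3 encode mitochondrial chaperones, SERPINH1 a collagen chaperone of the endoplasmic reticulum, and HSPA13 a microsomal HSP70 relative.

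Chaperones bind unfolded or partly folded proteins and help them to fold, to reach complexes or to be degraded. HSP70 proteins bind and release their clients in cycles of ATP use, in which DNAJ (HSP40) proteins deliver clients and speed up ATP hydrolysis, and exchange factors of the BAG and HSP110 families let ADP go. HSP90 proteins act later, with co-chaperones that load and hold clients, and steroid receptors such as the androgen receptor are classic HSP90 clients. Small heat shock proteins hold unfolded proteins without ATP. When unfolded proteins build up, HSF1 forms trimers and binds heat shock elements, which are repeats of the unit GAA and its inverse TTC in alternating orientation, and many chaperone genes are then transcribed. HSF1 is itself controlled mainly through its protein rather than its transcript.

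The sequences upstream of these genes show how directly the heat shock element is written into them. RefSeq promoter windows (table built on GRCh38.p14) were at hand for 36 of the 40 genes, without CRYAB, HSF1, HSPA14 and STUB1, and each window was placed on GRCh37 by an exact match. The 250 bases before each start site were searched on both strands for a pair of units (GAA, 2 bases of any kind, then TTC, or the same with TTC before GAA) and for 3 alternating units in a row at the same spacing, which contain the pair. A pair was present for 17 of the 36 genes (47.2%), against 14% of all 27305 genes in the promoter table. A run of 3 units was present for 7 of the 36 genes (19.4%), against 0.557% of all genes in the table. Those 7 genes were CHORDC1, DNAJB6, HSP90AA1, HSP90AB1, HSPA8, HSPD1 and SERPINH1. The stretches of 5 of them are shown as examples of the element, 30 bases each and 5′ to 3′ on the strand of the gene, with the units and the bases between them in capitals. They lie at chr11:122932878-122932907 (minus strand), chr14:102553448-102553477 (minus strand), chr6:44215560-44215589 (plus strand), chr11:89956251-89956280 (minus strand) and chr2:198364785-198364814 (minus strand) of GRCh37.
HSPA8: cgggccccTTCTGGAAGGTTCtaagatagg
HSP90AA1: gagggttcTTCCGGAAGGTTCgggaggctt
HSP90AB1: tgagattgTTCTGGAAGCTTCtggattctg
CHORDC1: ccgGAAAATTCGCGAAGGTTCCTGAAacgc
HSPD1: gcattTTCTGGAAAGTTCTGGAAccgagcg
Each distance was taken from the first capital to the start site next to that window. It was 55 bases for HSPA8, 88 for HSP90AA1, 112 for HSP90AB1, 60 for CHORDC1 and 245 for HSPD1. For HSP90AA1, HSP90AB1 and HSPD1 that was the most downstream of the RefSeq start sites searched. The windows of their upstream start sites held no match. The windows shown for these genes and for HSPA8 lay inside the span of the gene. Some of the windows that hold these stretches overlap annotated transcripts. Of the 250 bases, annotated UTR covered 216 for HSPA8, 193 for HSPD1, 77 for HSP90AB1, 28 for CHORDC1 and 0 for HSP90AA1. In CHORDC1 the run extended over 23 bases and in HSPD1 over 18 bases, whereas the others shown, and those of DNAJB6 and SERPINH1, spanned 13 bases. A match is a run of letters and was not tested for binding of HSF1. The search took only exact units at this spacing within 250 bases. Elements with an altered unit, or lying farther away, would be missed, so the lack of a match does not show that a gene has no element.

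Several of the genes that rose furthest carried the shorter form. The 250 bases upstream of HSPB8 (chr12:119616486-119616735, plus strand), of the downstream start site of DNAJB4 (chr1:78470373-78470622, plus strand), of BAG2 (chr6:57036874-57037123, plus strand) and of the inducible HSP70 genes HSPA1A (chr6:31783070-31783319, plus strand) and HSPA1B (chr6:31795265-31795514, plus strand) each held 1 pair of units and no run of 3. They are printed because their genes lead the results or, for the HSPA1 pair, because the coding sequences are near copies. They were chosen after the values were seen. All 5 lie outside annotated coding sequence and UTRs, those of HSPB8 and DNAJB4 inside the span of their own gene because longer transcripts start upstream. Capitals mark the pair.
HSPB8: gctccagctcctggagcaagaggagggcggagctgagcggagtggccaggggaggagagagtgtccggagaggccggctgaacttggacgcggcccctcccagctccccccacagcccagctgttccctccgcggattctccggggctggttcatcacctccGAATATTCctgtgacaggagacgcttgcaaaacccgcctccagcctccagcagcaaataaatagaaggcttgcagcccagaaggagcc
DNAJB4: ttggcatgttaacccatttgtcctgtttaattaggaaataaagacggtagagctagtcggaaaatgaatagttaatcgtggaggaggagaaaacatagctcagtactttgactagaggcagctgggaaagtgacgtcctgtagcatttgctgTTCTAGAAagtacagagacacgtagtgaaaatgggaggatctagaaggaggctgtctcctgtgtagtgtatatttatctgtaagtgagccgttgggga
BAG2: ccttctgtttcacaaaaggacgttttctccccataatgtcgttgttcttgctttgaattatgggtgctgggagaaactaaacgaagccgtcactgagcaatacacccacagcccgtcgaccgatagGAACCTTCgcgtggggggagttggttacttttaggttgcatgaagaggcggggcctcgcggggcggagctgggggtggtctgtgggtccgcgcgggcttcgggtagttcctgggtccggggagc
HSPA1A: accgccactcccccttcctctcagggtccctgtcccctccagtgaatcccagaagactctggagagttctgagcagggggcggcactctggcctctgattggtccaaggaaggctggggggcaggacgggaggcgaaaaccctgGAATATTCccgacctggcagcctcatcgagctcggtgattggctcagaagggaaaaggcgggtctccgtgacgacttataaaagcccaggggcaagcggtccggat
HSPA1B: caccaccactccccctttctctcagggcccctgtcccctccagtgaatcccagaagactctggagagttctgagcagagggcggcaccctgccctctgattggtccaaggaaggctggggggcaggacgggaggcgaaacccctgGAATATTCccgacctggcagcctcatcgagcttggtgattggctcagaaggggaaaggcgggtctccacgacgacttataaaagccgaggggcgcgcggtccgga
The pair began 88 bases before the start site in HSPB8, 98 in DNAJB4, 124 in BAG2, 106 in HSPA1A and 105 in HSPA1B. No exact pair was found in the 250 bases searched for HSPH1, BAG3, DNAJB2 or HSPA4, which also rose. By direction of change, a pair was present for 8 of the 12 genes that rose and have a window, for 0 of the 4 that fell and for 9 of the 20 that did not pass the test. Of the 7 genes with the longer run of 3 units, HSPA8 and SERPINH1 rose, where 20.1% of all genes tested rose. CHORDC1, DNAJB6, HSP90AA1, HSP90AB1 and HSPD1 did not pass the test. Some of these calls were close to the threshold. HSP90AA1 had an edgeR adjusted p of 0.0582, and the call of SERPINH1 was lost in 9 of the 12 fits that left out a single library. A link between either form and the direction of change was not tested.

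The libraries held 9663203 to 28029908 reads on genes in DMSO and 13122415 to 22817803 in PBKi. DMSO replicate 5 had the fewest reads, from 3 sequencing lanes where every other library had 4. It stood apart from the other DMSO libraries on the high side in 5.76% of the genes tested and on the low side in 1.36%, where no other library exceeded 1.1% on either side. As a share of all alignments tallied, reads outside genes ranged over 4.11% to 4.97% among DMSO libraries and 4.28% to 6.76% among PBKi libraries. PBKi replicates 3 (6.76%) and 6 (6.46%) were highest. Reads overlapping several genes were 2.83% to 2.94% of the alignments tallied in each DMSO library and 3.04% to 3.14% in each PBKi library. The part of these differences in the results was not tested, and values without DMSO replicate 5 are given beside the genes in which it stood apart. Levels are given as CPM, the count of a gene divided by the reads on genes of its library after TMM scaling. All 8 markers of luminal prostate epithelium were present, with summed levels of 4726 to 5572 CPM in DMSO and 2803 to 3554 CPM in PBKi, led by the fall of KLK3, an androgen-driven gene. Of 11 markers of basal, blood, endothelial and stromal cells, 8 were under 1 CPM in every library and none was at 0 in all, with sums of 19.7 to 25.0 CPM in DMSO and 18.9 to 24.2 CPM in PBKi, of which the collagen gene COL1A1 made up 17.2 to 22.5 and 16.5 to 21.1 CPM. In bulk RNA, fewer cells of a kind and less RNA per cell cannot be told apart.

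Chaperone transcripts moved unevenly after 6 h of PBKi, and the rises were led by the small heat shock protein HSPB8, which was 10.8-fold higher. Of the 40 genes, 17 passed the test at an adjusted p under 0.05 in either direction, against 41.7% of all 14505 genes tested. Of these 13 rose, against 20.1% of all genes tested. The other 4 fell, against 21.5% of all genes tested. The median log2 fold change was 0.066 over the 40 genes and -0.012 over all genes tested. Among the 40, 5 rose with a log2 fold change of at least 0.5 (8.81% of all genes tested) and 0 fell by as much (4.32% of all genes tested). In 11 genes every PBKi library lay above every DMSO library (10.5% of all genes tested), and in 3 genes every PBKi library lay below (9.68%). The rises fell into HSP70 and HSP110 proteins (4 of 9), DNAJ proteins (4 of 9), BAG exchange factors (2 of 3), small heat shock proteins (2 of 3) and SERPINH1. None of the 2 heat shock factors, 8 HSP90 proteins and co-chaperones or 5 mitochondrial chaperones was called higher. HSP90AA1 was close to the threshold (edgeR adjusted p = 0.0582). Whether these classes differ was not tested. Without the mitochondrial chaperones, SERPINH1 and HSPA13, 12 of 33 genes rose and 3 fell. Leaving out PBKi replicates 3 and 6, a choice made after seeing the data, gave 13 of the 40 genes higher and 3 lower. In that fit 15.5% of all genes tested were higher and 14.2% lower.

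**Figure D1:**
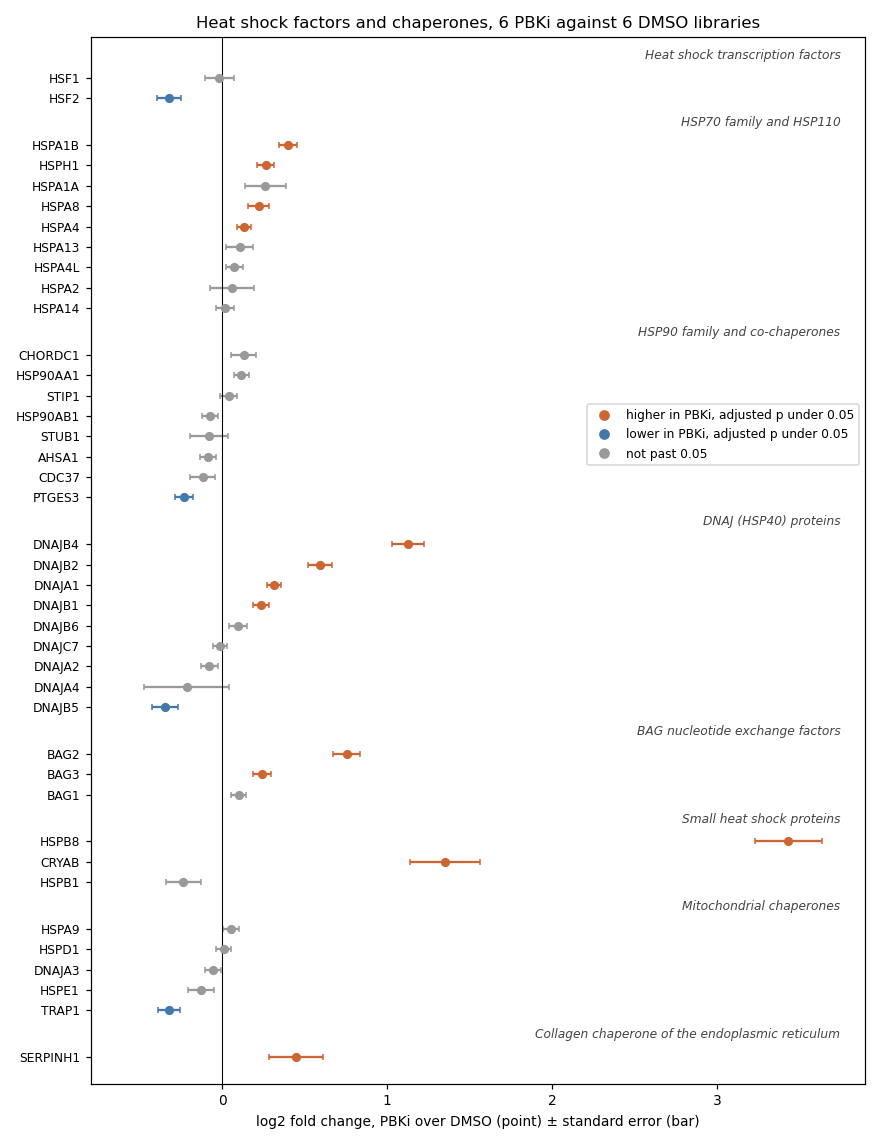
Log2 fold change of PBKi over DMSO for the 40 genes, grouped by role, with points for the estimate and bars for its standard error, SE (6 libraries per group). HSPB8 at 3.43, CRYAB at 1.35 and DNAJB4 at 1.13 stand to the right, and the heat shock factors, HSP90 genes and mitochondrial chaperones lie between -0.32 and 0.13.

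The heat shock factors did not rise. HSF1 (ENSG00000185122), the main activator of the response, lay at 73.6, 79.9 and 118 CPM (lowest, median and highest library) in DMSO and at 79.4, 83.1 and 89.8 CPM in PBKi. The groups overlapped, and the highest DMSO value was that of replicate 5. The log2 fold change of HSF1 was -0.018 (SE 0.089, adjusted p = 0.892), and without DMSO replicate 5 it was 0.094 (adjusted p = 0.108). HSF2 (ENSG00000025156, chromosome 6 from 122720696 to 122754264), a related factor that binds the same elements and can join HSF1 in trimers, lay at 23.9, 31.2 and 33.3 CPM in DMSO and at 21.9, 24.4 and 25.6 CPM in PBKi. All PBKi libraries of HSF2 were below the DMSO libraries except DMSO replicate 5, the lowest of its group, which lay among them. HSF2 fell by 0.32 on the log2 scale (SE 0.073, adjusted p = 0.00182), in 5 of 6 same-numbered pairs.

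In the HSP70 class the rises were small but tight. HSPA1B (ENSG00000204388, chromosome 6 from 31795515 to 31798031), a stress-inducible HSP70 gene, lay at 96.4, 105 and 120 CPM in DMSO and at 134, 139 and 148 CPM in PBKi. All 6 PBKi libraries were above all DMSO libraries, at a log2 fold change of 0.40 (SE 0.054, adjusted p = 1.57e-05). HSPA1A (ENSG00000204389), its near-identical neighbour at 31783320 to 31785723, lay at 2.27, 2.53 and 2.97 CPM in DMSO and at 2.49, 3.04 and 3.68 CPM in PBKi. HSPA1A overlapped between groups and did not pass the test, with a log2 fold change of 0.26 (adjusted p = 0.107). Reads that align to several places were not counted (26.7% to 29.3% of the alignments tallied per library), so the split between HSPA1A and HSPA1B is uncertain. Summing the counts of both gave 0.40 on the log2 scale (edgeR adjusted p = 1.64e-05). That sum rests almost wholly on HSPA1B and does not bring back the reads left out, so it does not settle the split.

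HSPA8 (ENSG00000109971), the constitutive HSC70 and the carrier of 2 runs of 3 heat shock units in its window, lay at 2688, 3124 and 3420 CPM in DMSO and at 3227, 3707 and 3829 CPM in PBKi. Its groups overlapped at their edges, although each PBKi library exceeded the DMSO library of the same number. The log2 fold change of HSPA8 was 0.22 (SE 0.063, adjusted p = 0.00949). HSPH1 (ENSG00000120694), the HSP110 exchange factor for HSP70, lay at 605, 656 and 702 CPM in DMSO and at 729, 792 and 812 CPM in PBKi. Without overlap, HSPH1 rose by 0.26 on the log2 scale (SE 0.051, adjusted p = 0.000518). HSPA4, another HSP110 family exchange factor, rose by 0.13 on the log2 scale (adjusted p = 0.0221) without overlap. That call was lost without PBKi replicate 2 (adjusted p = 0.0566), with no filter on low counts (adjusted p = 0.145) and in replicates 4 to 6 alone (adjusted p = 0.354). The testis-enriched HSPA2 and HSPA4L, the ribosome-linked HSPA14 and the microsomal HSPA13 had log2 fold changes of 0.016 to 0.10 and did not pass.

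**Figure D2:**
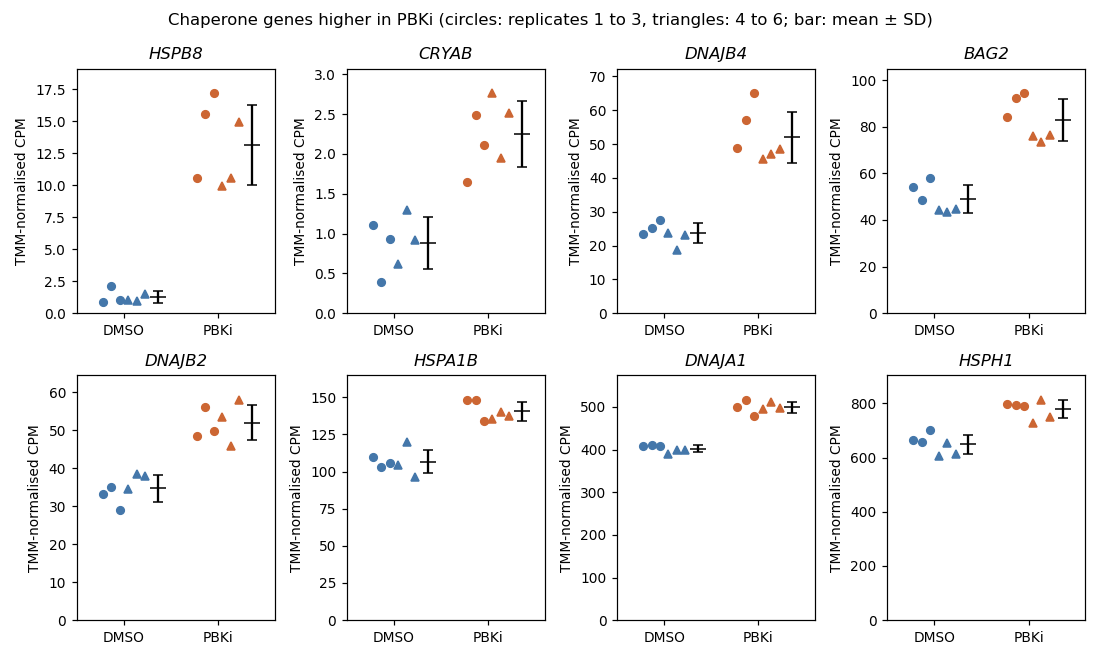
TMM-normalised CPM in each library for 8 chaperone genes that rose, with circles for replicates 1 to 3, triangles for replicates 4 to 6 and a bar for the mean ± SD of 6 libraries. In each of the 8 genes every PBKi library lies above every DMSO library, from 9.95 CPM or more against 2.12 CPM or less for HSPB8 to 729 CPM or more against 702 CPM or less for HSPH1.

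The HSP90 class did not rise as a class, and its 2 cytosolic HSP90 genes differed. HSP90AA1 (ENSG00000080824), the stress-inducible isoform, lay at 3212, 3269 and 3352 CPM in DMSO and at 3410, 3494 and 3763 CPM in PBKi. All PBKi libraries of HSP90AA1 were above all DMSO libraries, but the log2 fold change of 0.12 (SE 0.047) gave an adjusted p of 0.0582 and was not called. DESeq2 and limma-voom did call it (adjusted p = 0.00529 and 0.037). So did edgeR with upper-quartile factors (adjusted p = 0.0279), library size only (0.00861), at least 50 counts (0.0254) or lanes 6 to 8 only (0.0456). RLE scaling (edgeR adjusted p = 0.0558) and no filter on low counts (0.237) did not. Leaving out a single library called HSP90AA1 in 3 of the 12 fits. HSP90AB1 (ENSG00000096384), the constitutive isoform, lay at 2939, 3032 and 3233 CPM in DMSO and at 2785, 2912 and 3125 CPM in PBKi. Its groups overlapped, at a log2 fold change of -0.073 (SE 0.048, adjusted p = 0.242).

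PTGES3 (ENSG00000110958), which encodes the co-chaperone p23 that holds HSP90 in its closed, client-bound state, was the member of this class that fell. It lay at 807, 865 and 955 CPM in DMSO and at 699, 755 and 796 CPM in PBKi. The groups did not overlap, and the log2 fold change of PTGES3 was -0.23 (SE 0.056, adjusted p = 0.00305). The remaining co-chaperones did not pass the test. STIP1 (HOP), which links HSP70 to HSP90, was at 0.040 on the log2 scale, AHSA1, which speeds up the HSP90 ATPase, at -0.089, the kinase adaptor CDC37 at -0.12, CHORDC1 at 0.13 and the ubiquitin ligase STUB1 (CHIP) at -0.080. In CDC37, DMSO replicate 5 was high, at 252 CPM against 173 to 192 CPM in the other DMSO libraries, and without it the log2 fold change was -0.032 (adjusted p = 0.593). STUB1 changed sign without that library, to 0.042 (adjusted p = 0.705). By the annotation, 42.5% of the exon bases of STUB1 lie over JMJD8 on the opposite strand, and the strand setting of the counting is not stated.

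**Figure D3:**
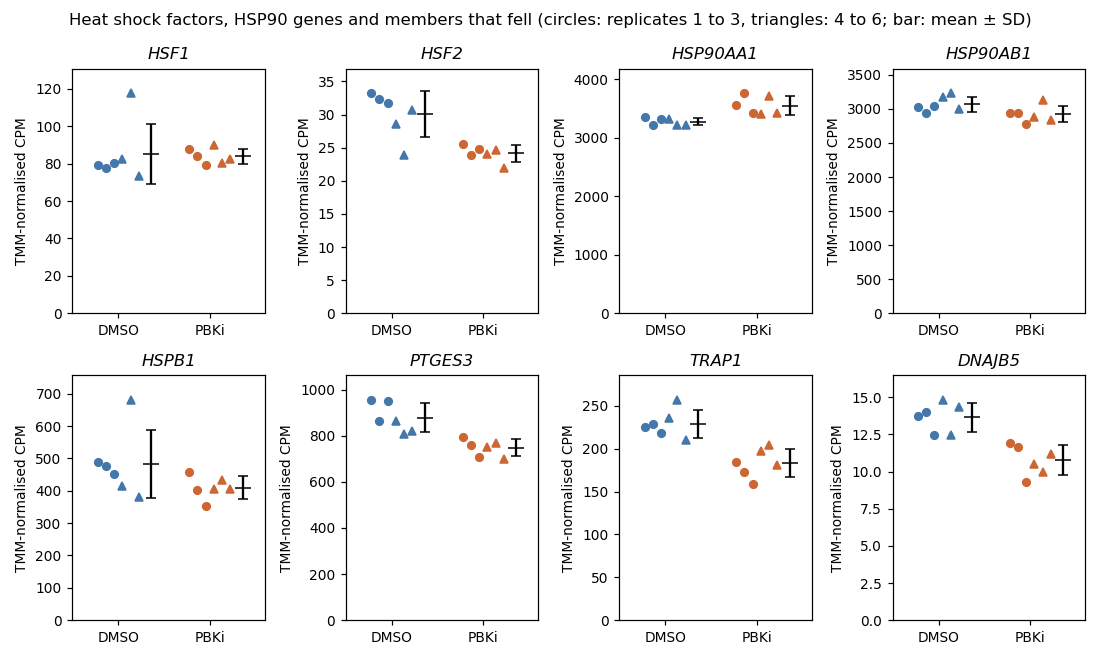
TMM-normalised CPM in each library for the heat shock factors, the cytosolic HSP90 genes, HSPB1 and 3 genes that fell, with circles for replicates 1 to 3, triangles for replicates 4 to 6 and a bar for the mean ± SD of 6 libraries. DMSO replicate 5 stands apart in HSF1 at 118 CPM and in HSPB1 at 681 CPM, and in PTGES3, TRAP1 and DNAJB5 every PBKi library lies below every DMSO library.

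DNAJ proteins moved in both directions. DNAJB4 (ENSG00000162616, chromosome 1 from 78444859 to 78483648), a cytosolic HSP70 partner of the class B type, rose most. DNAJB4 lay at 18.7, 23.6 and 27.7 CPM in DMSO and at 45.7, 48.7 and 65.1 CPM in PBKi, so that no library overlapped. Its log2 fold change was 1.13 (SE 0.096, adjusted p = 7.35e-08), a 2.18-fold rise. DNAJB2 (ENSG00000135924), which carries ubiquitin-binding motifs and brings clients to the proteasome, lay at 29.0, 34.8 and 38.4 CPM in DMSO and at 45.9, 51.7 and 58.0 CPM in PBKi. It rose without overlap by 0.59 on the log2 scale (SE 0.074, adjusted p = 6.74e-06).

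DNAJA1 and DNAJB1, the abundant cytosolic partners of HSP70, rose less. DNAJA1 (log2 fold change 0.31, SE 0.042, adjusted p = 1.57e-05) went from 390, 403 and 410 CPM in DMSO to 480, 499 and 516 CPM in PBKi, again without overlap. DNAJB1 (ENSG00000132002), the classic heat-induced HSP40, lay at 125, 138 and 144 CPM in DMSO and at 149, 162 and 169 CPM in PBKi. Its groups did not overlap, at a log2 fold change of 0.24 (SE 0.050, adjusted p = 0.00104). DNAJB5 (ENSG00000137094), a close relative of DNAJB1, went the other way, from 12.4, 13.9 and 14.8 CPM in DMSO to 9.32, 10.8 and 11.9 CPM in PBKi. Every PBKi library of DNAJB5 lay below every DMSO library, at a log2 fold change of -0.35 (SE 0.079, adjusted p = 0.00197). DNAJA2, DNAJB6, DNAJC7 and DNAJA4 did not pass the test, with log2 fold changes of -0.079, 0.096, -0.016 and -0.22, and DNAJA4 rested on 5 to 17 reads per library.

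Of the BAG family, which releases ADP from HSP70, BAG2 and BAG3 rose. BAG2 (ENSG00000112208), which also restrains the ubiquitin ligase CHIP, lay at 43.4, 46.6 and 58.1 CPM in DMSO and at 73.2, 80.5 and 94.4 CPM in PBKi. Its groups were well apart, at a log2 fold change of 0.75 (SE 0.083, adjusted p = 1.54e-06). By the annotation, 44.2% of the exon bases of BAG2 lie over genes on the opposite strand, RAB23 among them, so reads there may be left out or belong to them. BAG3 (ENSG00000151929), the partner of HSPB8 in chaperone-assisted autophagy, lay at 86.3, 92.2 and 108 CPM in DMSO and at 106, 111 and 114 CPM in PBKi. Although its groups overlapped, BAG3 rose by 0.24 on the log2 scale (SE 0.053, adjusted p = 0.0017) and was higher in all 6 same-numbered pairs. The overlap came from DMSO replicate 5 alone, at 108 CPM, with the other DMSO libraries at 94.8 CPM or less. BAG1 did not pass, at 0.098 on the log2 scale (adjusted p = 0.0968).

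The small heat shock proteins included the largest and second largest rises of the 40 genes as well as an abundant gene that did not rise. HSPB8 (ENSG00000152137, chromosome 12 from 119609360 to 119662660), which forms a complex with BAG3 and HSP70 that sends misfolded proteins to autophagy, lay at 0.864, 1.04 and 2.12 CPM in DMSO and at 9.95, 12.8 and 17.2 CPM in PBKi. The lowest PBKi library was above the highest DMSO library by a wide gap, and raw counts were 9 to 29 reads per library in DMSO and 141 to 406 in PBKi. The log2 fold change of HSPB8 was 3.43 (SE 0.21, adjusted p = 8.48e-10), with counting error largest on the DMSO side. CRYAB (ENSG00000109846), the alpha-B crystallin, lay at 0.392, 0.930 and 1.30 CPM in DMSO and at 1.65, 2.30 and 2.77 CPM in PBKi. CRYAB did not overlap and rose by 1.35 on the log2 scale (SE 0.21, adjusted p = 6.97e-05), on 5 to 26 reads per DMSO library and 22 to 62 per PBKi library. By the annotation 13.6% of its exon bases lie over its neighbour HSPB2 on the opposite strand. HSPB1 (ENSG00000106211), the abundant HSP27, lay at 382, 464 and 681 CPM in DMSO and at 353, 404 and 458 CPM in PBKi. It overlapped between groups, at a log2 fold change of -0.24 (SE 0.11, adjusted p = 0.0834), or -0.11 (adjusted p = 0.222) without DMSO replicate 5, its highest library. With no filter on low counts HSPB1 passed (adjusted p = 0.014).

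No mitochondrial chaperone among the members was called higher. HSPD1 (ENSG00000144381), the HSP60 chaperonin, lay at 1886, 1994 and 2050 CPM in DMSO and at 1955, 1983 and 2022 CPM in PBKi, at a log2 fold change of 0.0081 (SE 0.045, adjusted p = 0.902). HSPE1 (ENSG00000115541), its HSP10 lid, which is transcribed from the same region in the other direction, lay at 216, 252 and 312 CPM in DMSO and at 220, 235 and 254 CPM in PBKi. The groups of HSPE1 overlapped, at a log2 fold change of -0.13 (SE 0.078, adjusted p = 0.191). TRAP1 (ENSG00000126602), the mitochondrial HSP90, lay at 210, 227 and 257 CPM in DMSO and at 159, 183 and 204 CPM in PBKi. Without overlap, TRAP1 fell by 0.32 on the log2 scale (SE 0.064, adjusted p = 0.000632), and 41.9% of its exon bases lie over AC006111.1 or DNASE1 on the opposite strand, from which reads there cannot be told apart if the counting did not use strand. The mitochondrial HSP70 HSPA9 and its partner DNAJA3 did not pass, at 0.052 and -0.060. SERPINH1, the collagen chaperone HSP47, lay at 1.80, 2.21 and 3.79 CPM in DMSO and at 2.28, 3.28 and 3.76 CPM in PBKi. Its rise of 0.45 on the log2 scale (SE 0.16, adjusted p = 0.0361) came with overlapping groups, and the call was lost in 9 of the 12 fits that left out a single library, with adjusted p up to 0.0739. Leaving out DMSO replicate 5, its highest DMSO library, gave 0.57 (adjusted p = 0.00362).

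Transcript levels were compared between the genes per length only. Reads aligned to several places were left out, so genes with similar sequence elsewhere may read too low, by an amount that was not measured. Median CPM per kb of the canonical transcript in DMSO was highest for HSPA8 (1380), followed by HSP90AB1 (1187), HSP90AA1 (1013), HSPD1 (888), HSPB1 (597), PTGES3 (456) and HSPE1 (452). The genes with the greatest rises were among the lowest. In DMSO, HSPB8 stood at 0.560 CPM per kb, 39th of 40, CRYAB at 1.20, DNAJB4 at 8.12 and DNAJB2 at 11.3. In PBKi, HSPB8 reached 6.86 CPM per kb, still below BAG2 (12.1), DNAJB4 (16.8) and HSPA1B (55.0). Of the 7 most abundant genes in DMSO, HSPA8 rose, PTGES3 fell and the other 5 did not pass the test. The lowest, DNAJA4, was at 0.261 CPM per kb.

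Ratios within a library need no scaling between libraries and asked whether partners changed unequally. Of 7 pairs compared by a two-sided exact permutation test over the 924 ways to split the 12 libraries, 2 differed after Benjamini-Hochberg adjustment over the 7. The log2 ratio of HSP90AA1 to HSP90AB1 was -0.0053 to 0.15 in DMSO and 0.24 to 0.36 in PBKi, a mean rise of 0.19 (exact p = 0.00216, adjusted p = 0.00758). That of DNAJA1 to DNAJA2 was 1.08 to 1.26 in DMSO and 1.48 to 1.70 in PBKi, a mean rise of 0.39 (exact p = 0.00216, adjusted p = 0.00758). In each of these pairs no library overlapped between groups, and the p is the smallest that 6 against 6 can give. BAG3 to BAG1 rose by 0.14 (exact p = 0.0411, adjusted p = 0.0960) and thus missed the threshold after adjustment. HSF1 to HSF2 differed by 0.30 (exact p = 0.104, adjusted p = 0.182), or by 0.46 without DMSO replicate 5 (exact test, adjusted p = 0.00379). The ratios HSPD1 to HSPE1 (0.13, adjusted p = 0.221), HSPA4L to HSPA4 (-0.054, adjusted p = 0.354) and DNAJB1 to HSPA8 (0.015, adjusted p = 0.626) did not pass in the same exact test.

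**Figure D4:**
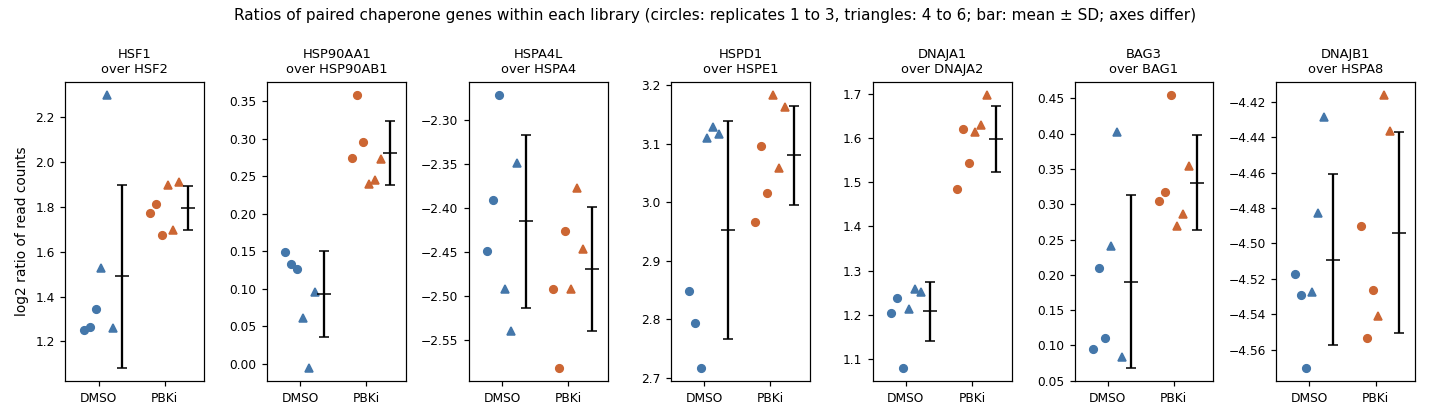
Log2 ratio of read counts of paired chaperone genes in each library, with circles for replicates 1 to 3, triangles for replicates 4 to 6 and a bar for the mean ± SD of 6 libraries, each panel on its own axis. HSP90AA1 over HSP90AB1 and DNAJA1 over DNAJA2 separate fully between groups, and DMSO replicate 5 stands apart at 2.30 in HSF1 over HSF2.

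The changes were also taken within replicates 1 to 3 and within replicates 4 to 6. All 17 genes that passed the test had the same sign in both sets, and 12 of the 17 changed more in replicates 1 to 3. The 17 genes were picked by the fit on these same libraries. Agreement between the sets, or across same-numbered pairs, is therefore largely built in and is no separate check. HSPB8 changed by 3.59 in replicates 1 to 3 and by 3.30 in replicates 4 to 6 on the log2 scale. BAG2 changed by 0.76 and 0.77, CRYAB by 1.28 and 1.42, and DNAJB4 by 1.18 and 1.10. SERPINH1 was the most uneven of the genes that rose, at 0.63 and 0.24. HSF1 had opposite signs, at 0.085 and -0.11, and HSPE1 changed by -0.24 in replicates 1 to 3 and by 0.010 in replicates 4 to 6. With 3 libraries against 3, replicates 4 to 6 alone called 8 of the 40 genes higher and 2 lower, where 9.08% and 8.48% of all genes tested in that fit were called. Replicates 1 to 3 alone called 13 higher and 6 lower, where 22.6% and 21.3% of all genes were called. Among same-numbered pairs, 12 of the 13 genes that rose were higher in all 6, the exception being SERPINH1 at 5 of 6, and 3 of the 4 that fell were lower in all 6, the exception being HSF2.

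**Figure D5:**
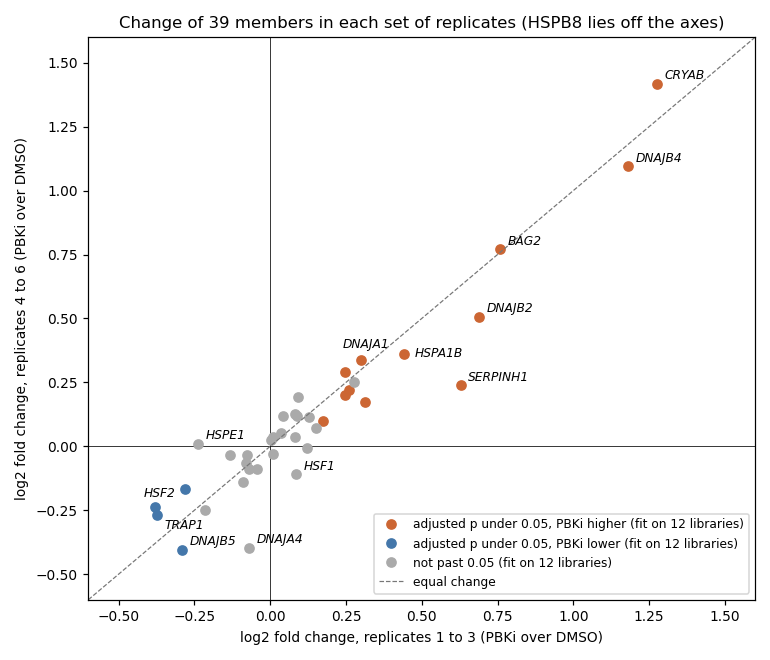
Log2 fold change of PBKi over DMSO in replicates 4 to 6 against that in replicates 1 to 3 for 39 genes, with HSPB8 off the axes at 3.59 and 3.30. The coloured genes, which passed the test over 12 libraries, lie in the upper right or lower left quadrant, near the dashed line of equal change except SERPINH1.

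Other genes of protein folding were counted from lists of the rest of each family, to be read against the 20.1% higher and 21.5% lower among all genes tested. TRiC, the cytosolic chaperonin for actin and tubulin, had 0 of 8 subunits higher and 3 (37.5%) lower, with a median log2 fold change of -0.12, led by CCT8 at -0.23 (adjusted p = 0.00257) and CCT7 at -0.18 (adjusted p = 0.00922). Prefoldin, which hands clients to TRiC, had 0 of 6 higher and 2 (33.3%) lower, PFDN2 and PFDN5, each at -0.25. Other HSP70 genes and regulators of HSP70 or HSF had 7 of 14 (50%) higher and 2 lower, with a median of 0.15. Among them HSPA1L rose by 1.30 on the log2 scale (adjusted p = 1.36e-05) and the strictly inducible HSPA6 by 0.98 (adjusted p = 0.00636), both at low levels, with 4.36 CPM or less and 1.85 CPM or less in every library, and HSPA1L shares sequence with HSPA1A and HSPA1B. The other HSP90 co-chaperones had 1 of 12 higher and 3 (25%) lower, including FKBP5, an immunophilin and androgen receptor target, at -0.50 (adjusted p = 2.43e-06).

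The other DNAJ genes split 6 higher (19.4%) and 4 lower (12.9%) of 31, led by the auxilin gene DNAJC6 at 0.64 (adjusted p = 0.000105) and the endoplasmic reticulum gene DNAJB9 at 0.61 (adjusted p = 0.00115). Of the other small heat shock proteins only 1 gene had enough reads, and it did not pass. The other mitochondrial chaperones and exchange factors had 1 of 8 higher and 5 (62.5%) lower, with a median of -0.20, and the 2 that changed most were PHB2 at -0.42 (adjusted p = 0.000109) and HSCB at -0.29 (adjusted p = 0.0104). Endoplasmic reticulum chaperones had 1 of 12 higher and 6 (50%) lower, with SIL1, an exchange factor of the resident HSP70, at 0.39 (adjusted p = 0.000347) and the disulphide isomerase PDIA4 at -0.34 (adjusted p = 0.000151). Proteasome subunits had 5 of 31 higher (16.1%, below the share of all genes) and 0 lower, with a median of 0.025, led by PSMD8 at 0.31 (adjusted p = 0.000478) and PSMD12 at 0.20 (adjusted p = 0.00287).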

How the data were processed

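RNAseq libraries of C4-2 cells (6 DMSO, 6 PBKi) were compared. The authors aligned 40-base single-end reads with TopHat2 2.0.4 to GRCh37, counted reads per gene with HTSeq 0.5.3p9 and tested with DESeq 1.10.1, as named in the study's methods and the submitters' processing notes. The deposited values are raw counts of reads per gene in 47 lane files, with no normalisation. HTSeq leaves out reads aligned to several places or to several genes. Whether counting used strand is not given in the sources used here.

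Lanes of a library were summed, since they differed by no more than counting error (chi-square per degree of freedom 0.991 to 1.02 between lanes, 4.37 to 27.5 between libraries of a group). The 14505 genes that reached 10 counts in 6 or more libraries were tested with edgeR's quasi-likelihood test (edgeR 4.0.16, R 4.3.3) after TMM normalisation, without covariates, with Benjamini-Hochberg adjustment over all genes tested and a threshold of 0.05. The size of each log2 fold change over the square root of F gave its SE. The procedure was tested on simulated data. Ratios used summed counts plus 0.5. Depth was 9663203 to 28029908 reads on genes per library, so that genes with few reads, such as HSPB8 in DMSO, carry more counting error.

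Coordinates are GRCh37 (GENCODE 44 lifted over), newer than the annotation the authors counted. Promoter letters were read from RefSeq windows. The members, lists and tests were chosen with earlier results of these data known. Named in full were the heat shock factors, the main HSP70, HSP90, HSP40, HSP110 and BAG genes, HSPB1, HSPD1, HSPE1, and, of the other members that passed, the 5 largest rises and the largest falls, with the 2 largest changes among called genes of every other list, of which 1 gene is not reported here. Alternatives covered DESeq2 1.42.0, limma-voom (limma 3.58.1), other scalings, filters and thresholds, lanes 6 to 8, terms for replicates and leaving out each library.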

Additional observations from a re-analysis of the deposited data

Results flagged for a closer look

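In each group of 6 libraries the highest and lowest value of every member was set against the rest by Dixon's criterion. Of 80 such groups 5 stood out, and chance flags about 5% of groups. In HSF1, DMSO replicate 5 was at 118 CPM against 73.6 to 82.4 CPM in the other 5 DMSO libraries. In CDC37, the same library was at 252 CPM against 173 to 192 CPM. In HSPB1 it was at 681 CPM against 382 to 490 CPM. In SERPINH1 it was at 3.79 CPM against 1.80 to 2.38 CPM. This library had the fewest reads and stood apart in many other genes, and its part in these values was not tested. In HSPA9, PBKi replicate 1 was lowest, at 686 CPM against 713 to 729 CPM in the other 5 PBKi libraries, and without it the log2 fold change of HSPA9 was 0.073 (edgeR adjusted p = 0.273) rather than 0.052.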

How the results depend on the processing

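Across other fits on the 12 libraries the members called ranged from 12 to 15 higher and from 4 to 5 lower. The shares of all genes tested in those fits ranged from 10.2% to 24.8% higher and from 8.8% to 26.2% lower. Leaving out PBKi replicates 3 and 6 (chosen after seeing the data) gave 13 higher and 3 lower, where 15.5% and 14.2% of all genes were called. The median of the members moved from 0.066 to 0.11 with scaling by library size only, which also moved the median of all genes to 0.035, and to 0.10 with lanes 6 to 8 only. Replicates 4 to 6 alone called 8 higher and 2 lower (9.08% and 8.48% of all genes tested in that fit). A log2 fold change of at least 0.5 in size left 5 higher and 0 lower (8.81% and 4.32% of all genes tested). Leaving out each library gave 11 to 14 higher, 4 to 5 lower and a median of 0.065 to 0.086. Of all genes tested, 17.7% to 23.1% were then higher and 18.2% to 22.2% lower. The ratios then ranged from 0.17 to 0.20 for HSP90AA1/HSP90AB1, 0.36 to 0.41 for DNAJA1/DNAJA2, 0.12 to 0.18 for BAG3/BAG1, 0.26 to 0.46 for HSF1/HSF2, 0.080 to 0.16 for HSPD1/HSPE1, -0.079 to -0.025 for HSPA4L/HSPA4 and -0.00031 to 0.031 for DNAJB1/HSPA8. Without DMSO replicate 5, HSF1/HSF2 at 0.46 and BAG3/BAG1 at 0.18 passed the exact test (adjusted p = 0.00379 each).

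Same-numbered libraries of the groups correlated in their deviations at 0.0887 to 0.299 (mean 0.199, against -0.040 for other pairs), and 8 of 12 libraries correlated best with their own number. This is a hint of pairing from the data, but pair 5 lay under 0.1 and no source ties the numbers to a shared culture or day, so the numbers were not taken to pair the libraries. With the replicate number as a block, calls over all genes went from 2921 to 3485 higher and from 3125 to 3803 lower, and over the members to 15 higher and 5 lower. The members gained were HSP90AA1 (adjusted p = 0.046), CHORDC1 (0.0194) and HSPB1 (0.0185, lower), and none was lost. In exact sign-flip tests within numbers, HSP90AA1/HSP90AB1 (0.19) and DNAJA1/DNAJA2 (0.39) were higher in 6 of 6 pairs, with the smallest p that 6 pairs allow (0.03125), which adjusted over the 7 ratios is 0.109.

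Genes near 0 changed sign. HSF1 was at 0.0032 in limma-voom, 0.0045 with upper-quartile factors, 0.032 with library size only, 0.0049 with at least 50 counts, 0.085 in replicates 1 to 3 and 0.025 without PBKi replicates 3 and 6, and over the fits that left out a single library it ranged from -0.041 to 0.094. DNAJC7 was at 0.0047, 0.032, 0.0052, 0.0078 and 0.0082 in the same order without limma-voom, at 0.0067 with lanes 6 to 8, and at -0.022 to 0.0055 without a single library. HSPA2 was at -0.0069 and HSPE1 at 0.010 in replicates 4 to 6, and without a single library STUB1 ranged from -0.13 to 0.042 and HSPD1 from -0.00035 to 0.023, changing sign without DMSO replicate 5. The causes were not tested. Low depth limits HSPB8, CRYAB, SERPINH1, HSPA1A, HSPA2 and DNAJA4 most.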
